A study of Homo sapiens with 16 samples.

Results

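The genes described here encode the proteins of the basement membrane and the integrins that bind matrix, 43 genes in all. They are 10 laminin chains, 6 chains of collagen IV, 7 other basement membrane genes (among them DAG1, which encodes dystroglycan), 12 integrin alpha chains and 8 integrin beta chains. A member was measured by the probe sets annotated to it and to no other gene. On that rule 40 of the 43 members had 112 of the array's 54675 probe sets, out of 19775 genes with a probe set of their own. LAMA3, DAG1 and ITGB6 had none and have no value under that rule.

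Expression was measured in 8 established human lung cancer cell lines, H1437, H1703, H661, H460, H358, H23, A549 and A427, which carried no other treatment. In 2D a line grew on tissue culture plastic. In 3D it grew on a thin bed of Matrigel, an extract rich in basement membrane proteins, with 2% Matrigel in the medium above, and density and medium were similar in both. Each line gave 1 array (Affymetrix U133 Plus 2.0) in each culture, so there were 16 arrays, and a difference within a single line has no replicate check.

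The basement membrane is a thin sheet of matrix under epithelia and around vessels. Laminins, trimers of an alpha, a beta and a gamma chain, form one network on the cell surface, collagen IV trimers form another, and nidogens and heparan sulfate proteoglycans such as perlecan and agrin connect them. Integrins are receptors made of an alpha and a beta chain that hold cells to this sheet or to other matrix and pass signals in both directions. In lung, they hold airway and alveolar epithelium to its basement membrane.

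Each value is the log2 ratio of a gene to its own reference, which for most probe sets is the median over the 16 arrays. Levels of one gene can therefore be compared between lines and cultures, and levels of different genes cannot. A gene was tested between cultures when it had a probe set whose median equals that reference; a gene without one was called dim. Of the 40 members, 31 were tested and 9 were dim (LAMA1, LAMA4, COL4A3, NID1, NID2, COL15A1, ITGA4, ITGA9 and ITGB2). A dim gene can still be high in a minority of lines. In such bulk cultures, fewer cells that hold a transcript and less of it per cell cannot be told apart. Medians of the arrays lay between -0.28 and -0.07. The array's 3 probe sets for 18S ribosomal RNA read lower in 3D in 8 of 8 lines, by 1.15 on average and by 3.45 in H23, and the part of this in the results was not tested beyond the alternative given with them. Epithelial markers, given here as means of 2D and 3D, differed among the lines but did not order them in one way. KRT8 and KRT18, keratins of simple epithelia, lay at -4.60 or below in H661 and H1703. EPCAM lay at -5.38 or below in A549, H460 and H1703 and at 1.25 in H661. CDH1 lay at -4.34 or below in H460 and H1703 and at -0.08 in H661. That H661 value averages 2 cultures that differed by 3.94, with 3D higher. None of 6 epithelial markers was called between the cultures, where 6.09% of all genes were. At an unadjusted p under 0.05 in limma there were 0, against 25.0% of all genes. Of the tested markers of leukocytes (2), endothelium (2), fibroblasts (6) and a mesenchymal state (4) 0 were called either, with 1, 1, 0 and 1 at an unadjusted p under 0.05. At those shares of all genes, lists this short can hold no call, so these counts do not show that the markers stayed the same.

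The collagen IV genes lie head to head in the genome in 3 pairs, and each pair starts transcription outward from a short shared stretch. That stretch is shown because the partners of a pair followed each other over the lines, as given further on. RefSeq's promoter table (GRCh38.p14) gives the 126 bases between the starts of COL4A1 and COL4A2 as chr13:110307158-110307283, on the plus strand. The starts of COL4A4 and COL4A3 are 418 bases apart, and the 250 bases before COL4A4 are chr2:227164206-227164455 on the minus strand. The starts of COL4A6 and COL4A5 are 379 bases apart, and the 250 bases before COL4A6 are chrX:108439459-108439708 on the minus strand. Capitals mark matches, on either strand, to GGGCGG, known as the GC box, or to the CCAAT box.
COL4A1 and COL4A2, between the starts: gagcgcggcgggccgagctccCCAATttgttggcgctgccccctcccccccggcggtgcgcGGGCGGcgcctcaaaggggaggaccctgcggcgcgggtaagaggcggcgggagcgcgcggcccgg
COL4A4, before the start: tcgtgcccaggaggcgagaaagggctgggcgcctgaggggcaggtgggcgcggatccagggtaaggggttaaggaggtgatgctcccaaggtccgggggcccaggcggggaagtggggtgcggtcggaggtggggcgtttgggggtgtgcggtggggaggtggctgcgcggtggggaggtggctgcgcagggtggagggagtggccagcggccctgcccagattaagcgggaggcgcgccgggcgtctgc
COL4A6, before the start: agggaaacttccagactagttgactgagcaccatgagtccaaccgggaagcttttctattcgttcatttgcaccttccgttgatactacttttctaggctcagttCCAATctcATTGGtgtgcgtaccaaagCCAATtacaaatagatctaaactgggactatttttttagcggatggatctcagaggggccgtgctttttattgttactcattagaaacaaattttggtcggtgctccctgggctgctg

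The 3 stretches differ in composition. G and C make up 80.2% of the stretch between COL4A1 and COL4A2 and 72.8% of that before COL4A4, against 44.0% before COL4A6. The first held 1 GC box and 1 CCAAT box, the second neither, and the third 3 CCAAT boxes and no GC box. Of 35116 promoter windows in the table, 34.6% hold GGGCGG and 21.1% hold CCAAT in 126 bases, and 42.6% and 32.0% do in 250 bases. TATAAA (the TATA box) and TGANTCA (an AP-1 site), which 10.7% and 6.57% of windows of 250 bases hold, had no match in any of the 3. A match describes letters and shows no binding.

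Most of these genes differed among the lines. Of the 40 members measured, 36 differed among the 8 lines (limma F test with culture as a covariate, Benjamini-Hochberg adjusted p under 0.05 over 19775 genes), where 67.8% of all genes did. Among the 31 tested members 28 did, against 82.0% of all genes with a probe set that is not dim, so the members' share lies near that of other genes. COL15A1, ITGA8, ITGA10 and ITGA11 were not called. In this test the 2 cultures of a line serve as its arrays, so p-values measure the spread between cultures around a common shift. Line levels below are means of 2D and 3D.

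**Figure D1:**
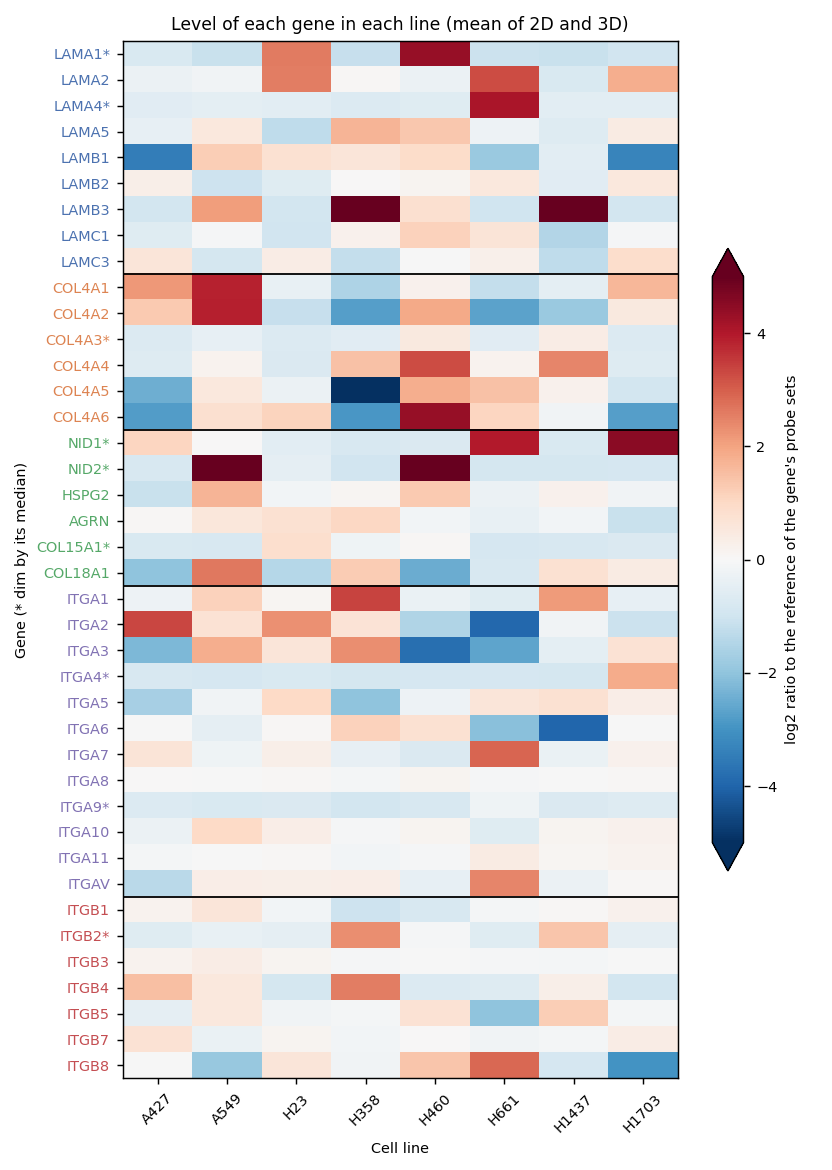
Level of each of the 40 measured members (rows, by family, coloured names) in each of the 8 lines (columns), as the log2 ratio to the gene's own reference averaged over 2D and 3D; asterisks mark the 9 dim genes, and colours stop at 5 in both directions. COL4A1 and COL4A2 are both highest in A549, LAMB3 is high in H358 (6.87) and H1437 (5.60), and NID2 in A549 (7.05) and H460 (6.65).

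Laminin alpha chains, which carry the binding site for receptors, divided the lines. LAMA5, the alpha chain most used in adult epithelial basement membranes, was highest in H358 (1.68) and H460 (1.36) and lowest in H23 (-1.26; F test in limma, adjusted p = 3.06e-05). LAMA2, the chain of muscle and nerve laminins, had levels of 3.28 in H661, 2.57 in H23 and 1.81 in H1703, against 0.05 or less in the other 5 lines. LAMA2 and LAMA5 were both under their reference in A427 (-0.31 and -0.40) and in H1437 (-0.76 and -0.66). LAMA1, typical of the embryo, was measured above its reference in H460 (4.36) and H23 (2.60) and lay between -1.17 and -0.77 in the others. LAMA4, a chain of vessels and mesenchyme, was high in H661 alone (4.09, others -0.68 to -0.47, averaged over 5 probe sets; adjusted p = 5e-09 for H661 against the mean of the other 7, limma).

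Among the beta chains, LAMB3, part of the laminin that anchors stratified and airway epithelium, had the widest range of the tested laminins, 7.85. Its level was 6.87 in H358, 5.60 in H1437, 2.10 in A549 and 0.80 in H460, and it lay between -0.98 and -0.92 in A427, H23, H661 and H1703, which did not differ beyond their spread. LAMB1, the common beta chain, was lowest in A427 (-3.45) and H1703 (-3.32), then H661 (-1.87), and highest in A549 (1.24). LAMB2, the beta chain of mature laminins, ranged over 1.58 and was lowest in A549 (-1.03). LAMC1, the gamma chain of most laminins, was highest in H460 (1.17) and lowest in H1437 (-1.48), and LAMC3, a less common gamma chain, ranged from -1.28 in H1437 to 0.90 in H1703.

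Collagen IV levels went by genomic pair. COL4A1 and COL4A2, which encode the chains found in nearly all basement membranes, were highest in A549 (3.84 and 3.89) and lowest in H358 (-1.54 and -2.77). Over the 8 line levels their Pearson correlation was 0.91 and their Spearman correlation 0.93. The levels of COL4A3 and COL4A4, whose products are chains of kidney and alveolar basement membrane, were highest in H460 (0.48 and 3.24) and H1437 (0.37 and 2.42), with correlations of 0.91 and 0.83. COL4A3 is dim and is the mean of 7 dim probe sets, so its range was only 1.17.

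COL4A5 and COL4A6, the X-linked pair, were highest in H460 (1.81 and 4.36) and low in H358, A427 and H1703. COL4A5 stood at the lowest ratio of the files, 0.01 (-6.64 in log2), in H358 in both cultures, so that value is a bound. Correlations of this pair were 0.76 and 0.86. These correlations describe 8 lines with no test, and the genes of a pair were read on the same arrays with one normalisation. They were 3 of 18 partner pairs computed.

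**Figure D2:**
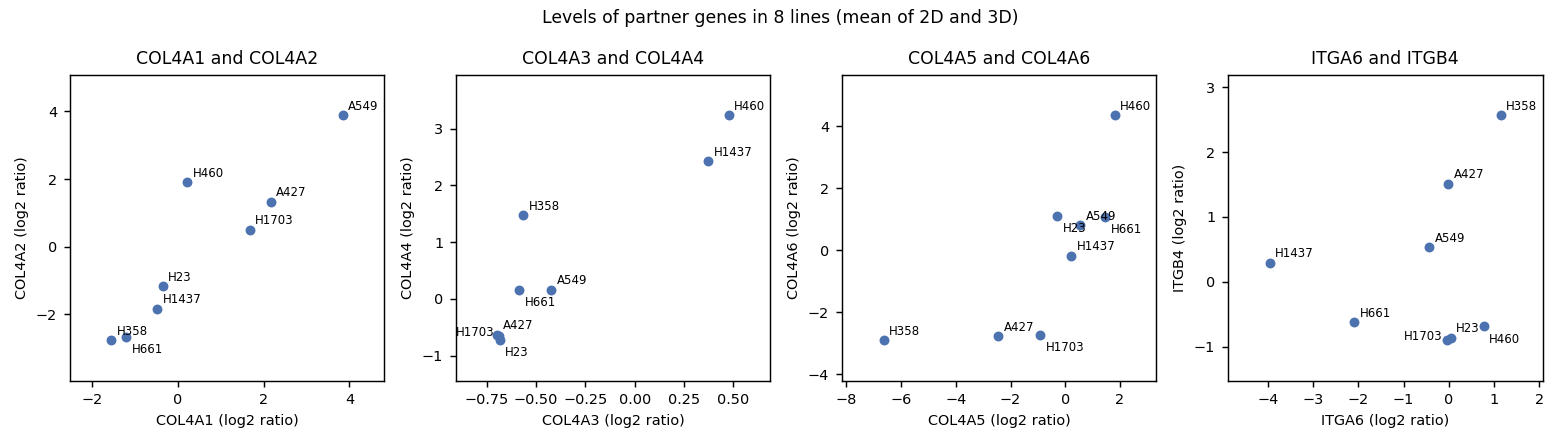
Line levels (log2 ratio, mean of 2D and 3D) of partner genes plotted against each other, with 1 point per line, for the 3 collagen IV pairs and for ITGA6 and ITGB4. The collagen partners rise together over the 8 lines (Pearson 0.91, 0.91 and 0.76), and the integrin partners do not (0.23).

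The nidogens, which link the networks, were each high in 2 lines. NID2 (nidogen 2) was high in A549 (7.05) and H460 (6.65) and lay at -0.44 or below in the other 6. NID1 (nidogen 1) was high in H1703 (4.52) and H661 (3.96), with 1.09 in A427 and 0.01 or less elsewhere, so no line was high in both. NID1 and NID2 are dim by their median, and the NID1 value averages 3 probe sets. HSPG2 (perlecan) was highest in A549 (1.71) and H460 (1.31), which did not differ beyond their spread, and lowest in A427 (-1.11). AGRN (agrin) was highest in H358 (1.05) and lowest in H1703 (-1.10). COL18A1, the source of endostatin, ranged from 2.64 in A549 to -2.47 in H460, and COL15A1 did not differ among lines (adjusted p = 0.0885, limma F test).

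Among the receptors for laminin, ITGA3, the alpha chain that pairs with beta 1 to bind laminins of epithelia, was highest in H358 (2.33) and A549 (1.83), which lay within their spread of each other. It was lowest in H460 (-3.75), H661 (-2.64) and A427 (-2.24). ITGA6, which pairs with beta 4 in hemidesmosomes or with beta 1, was highest in H358 (1.15) and H460 (0.77) and lowest in H1437 (-3.97) and H661 (-2.09), while A427, A549, H23 and H1703 lay between -0.43 and 0.04. ITGA7, a laminin receptor of muscle, was high in H661 alone (2.90, others -0.71 to 0.65).

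ITGB4, whose protein pairs with alpha 6 only, was highest in H358 (2.57) and A427 (1.51), and H661, H460, H23 and H1703 did not differ from one another beyond their spread (-0.90 to -0.63). ITGA6 and ITGB4 were thus both highest in H358, but over the 8 lines their correlation was 0.23. ITGB1, the beta chain shared by most matrix integrins, had a narrow range of 1.61, from 0.59 in A549 to -1.02 in H358. H661 was low in ITGA3, ITGA6 and ITGB4, and the same line was highest in LAMA2, LAMA4 and ITGA7.

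Of the collagen receptors, ITGA2 ranged over 7.25, from 3.32 in A427 and 2.30 in H23 down to -3.93 in H661. ITGA1 was highest in H358 (3.39) and H1437 (2.15), then A549 (1.15), and lay at 0.10 or below in the others. A427 and H23 were thus the lines high in ITGA2, and H358 and H1437 those high in ITGA1. ITGA10 was highest in A549 (0.999; adjusted p = 0.0234 against the mean of the other 7, limma), although the F test did not call it (adjusted p = 0.0802). ITGA11 varied by only 0.55.

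Integrins that bind the RGD motif of fibronectin and vitronectin had other orders. ITGAV, the alpha chain that pairs with several beta chains, was highest in H661 (2.45) and lowest in A427 (-1.35), with the other 6 lines between -0.40 and 0.32. ITGB8, a partner of alpha V that activates latent TGF-beta, was also highest in H661 (2.87) and was low in H1703 (-2.97) and A549 (-1.91). ITGB5, another partner, was lowest in H661 (-2.01) and highest in H1437 (1.21). ITGA5, the fibronectin receptor chain, was low in H358 (-2.02) and A427 (-1.66), and the other 6 lines followed one another within their spread, from -0.24 to 0.98. ITGB3 ranged over 0.46 and was highest in A549 (0.37). That value averages 4 probe sets, while a dim probe set of ITGB3 that the average leaves out read 3.59 in 2D and 2.80 in 3D in A549, and at most 0.18 in the other lines.

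Integrins best known from leukocytes were high in 1 or 2 lines each. ITGA4, the alpha chain that binds VCAM-1, was high in H1703 only (1.85, others -0.87 to -0.76; adjusted p = 1.8e-07 in limma against the mean of the other 7). ITGB2, the beta chain of leukocyte integrins, was highest in H358 (2.31) and H1437 (1.37). The leukocyte marker PTPRC (CD45) lay between -0.08 and 0.14 in all 8 lines and varied little, and its part in the ITGB2 and ITGA4 levels was not tested. ITGB7 ranged over 1.03, highest in A427 (0.71) and then H1703 (0.39). Of the remaining alpha chains, ITGA9 ranged over 0.71, highest in H661 (-0.22), and ITGA8 over 0.24.

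Set line by line against the mean of the other 7, H460 had 14 of the 40 members higher (13.2% of all genes) and 11 lower (18.7%). A549 had 12 higher (12.8%) and 10 lower (16.6%), and H358 had 11 higher (16.9%) and 14 lower (27.6%). A427 had 7 higher (18.1%) and 19 lower (15.5%). H23 and H661 had 10 higher each (16.7% and 17.5%), with 12 (14.5%) and 15 (19.0%) lower. H1437 and H1703 had 8 higher each (18.4% and 23.2%) and 13 lower each (18.9% and 12.1%). All calls are limma tests at an adjusted p under 0.05. On the low side all 8 lines had a larger share of the members than of all genes. On the high side 6 lines did, the exceptions being A427 and H1703. A549 and H460 had COL4A2, COL4A5, LAMB1, NID2 and HSPG2 high in common.

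Across the 8 lines, none of these genes passed the threshold between Matrigel and plastic. Of 31 members tested 0 were called (limma with the line as a block, adjusted p under 0.05 over 14113 genes), where 6.09% of all genes were called, 1.97% higher and 4.12% lower in 3D. At an unadjusted p under 0.05 there were 4 members (LAMA5, LAMB2, ITGB7 and ITGB8), or 12.9%, against 25.0% of all genes. With each probe set fitted on its own, 0 members had a called one (5 had one with an unadjusted p under 0.05 in limma), where 8.18% of probe sets were called. In means over lines 23 of 31 members lay above 0 with a median of 0.10, against 48.6% of all genes and a median of -0.01.

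The laminins had the highest family mean over all 8 lines, but not with the 18S difference as a covariate (0.12, against 0.26 for collagen IV) or without H23 (0.25 against 0.27). Over 7 tested chains the mean of 3D minus 2D was 0.28 ± 0.25 (SD, n = 8 lines), 6 of 7 lay above 0, and the family mean was above 0 in 7 lines, A427 being the exception (-0.17). The mean over collagen IV (5 genes) was 0.20 ± 0.57 and that over the other basement membrane genes (3) was 0.02 ± 0.34. It was 0.08 ± 0.36 over integrin alpha chains (10) and 0.10 ± 0.24 over beta chains (6). Single lines carried much of the 4 smaller means. Collagen IV was at 0.06 without H661 and 0.12 without A549, the other basement membrane genes at -0.05 without A549 or without H23, and alpha and beta chains at -0.02 and 0.05 without A549 and at 0.04 and 0.06 without H358. In 4 of the 5 families the SD over lines was larger than the mean, and the mean over all genes was -0.01 ± 0.05.

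**Figure D3:**
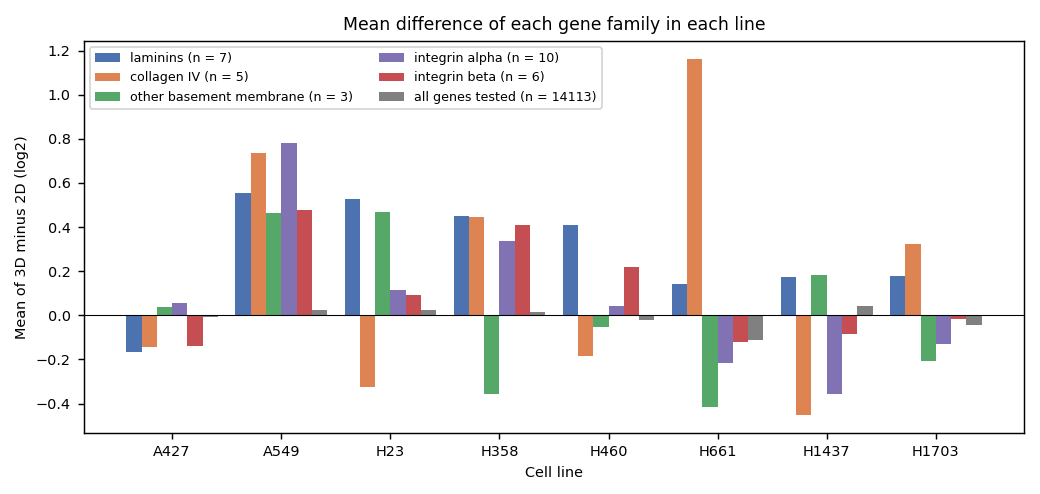
Mean of 3D minus 2D (log2) over the tested members of each family in each of the 8 lines, as 1 coloured bar per family beside a grey bar for all 14113 genes tested. A549 is above 0 in all 5 families (0.47 to 0.78), H661 is at 1.16 for collagen IV, and H1437 is at -0.45 for collagen IV and -0.36 for integrin alpha chains.

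LAMA5 came closest to the threshold. In 2D its values ran from -1.59 to 1.41 with a median of -0.02, and in 3D from -0.93 to 1.95 with a median of 0.15. The differences were 0.86 in H460, 0.65 in H23, 0.63 in H1437, 0.59 in A549, 0.54 in H358 and 0.33 in H1703, against -0.01 in H661 and -0.15 in A427. The cultures overlap because the lines differ more than the cultures, but within a line 6 of 8 had the 3D value higher. The mean difference was 0.43 ± 0.35 (SD, n = 8 lines; limma, adjusted p = 0.0546). The adjusted p was 0.0303 without A427 and 0.0484 with each array centred on its median, and between 0.0613 and 0.129 when another line was left out. With the 18S difference as a covariate the difference was 0.28 (adjusted p = 0.653, limma), and with no filter on dim genes the adjusted p was 0.0839. The LAMA5 value is that of a single probe set. A probe set shared with LAMA5-AS1, not used here, was higher in 3D only in H23 (0.10) and H1437 (0.37). It differed by -1.30 in H661, -0.89 in A549 and -0.80 in H358.

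LAMB2 was higher in 3D in 7 of 8 lines, by 0.53 ± 0.57 (SD, n = 8 lines; limma, adjusted p = 0.0923). Its values had a median of -0.47 in 2D (-1.20 to 0.47) and of 0.27 in 3D (-0.87 to 0.82). H358 had the largest difference (1.62), the next was H1437 (0.81), and A427 went the other way (-0.35). The adjusted p was 0.0404 without A427, between 0.111 and 0.172 when another line was left out, and 0.633 with the 18S covariate (0.47). A laminin alpha chain and beta chain used in mature basement membranes were thus the nearest to a call, and both passed it without A427. The LAMB2 value, like that of LAMA5, is that of a single probe set.

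The other laminin chains varied without a common direction. LAMA2 differed by 0.34 ± 0.73, with 1.86 in H23 and -0.52 in A427, and was at -0.36 with the 18S difference as a covariate. LAMB1 differed by 0.23 ± 0.59, with 1.15 in H661, 0.95 in H460 and -0.41 in H358, and its 2 probe sets gave means of 0.43 and 0.03. LAMC1 had differences between -0.21 and 0.35, and LAMC3 between -0.82 (H661) and 0.17. The dim LAMA4 had 0.60 in H661, the one line where it was high, and the dim LAMA1 had -0.78 in H460 and -0.23 in H23, the lines where it was high.

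For collagen IV, the differences varied widely between lines. Partner genes went together in part, with Pearson correlations of the differences over the 8 lines of 0.68 for COL4A1 and COL4A2, 0.82 for COL4A3 and COL4A4 and 0.55 for COL4A5 and COL4A6, as a description with no test. COL4A1 differed by 0.07 ± 0.28, and COL4A2 by -0.31 ± 0.52 with -1.18 in H23 and -0.95 in H460 (adjusted p = 0.251, limma). COL4A4 had 2.09 in H358, 1.79 in A549, 1.77 in H661 and -1.48 in H1437, and between -0.09 and 0.12 in the other 4 lines, for a mean of 0.53 ± 1.24. COL4A5 (0.34 ± 0.67) and COL4A6 (0.36 ± 0.85) shared their highest line, H661 (1.60 and 1.93). H661 was the line with 3 of 5 collagen IV genes at least 2-fold higher in 3D, against 2.58% of all genes there. Its COL4A1 and COL4A2 differed by 0.52 and -0.01.

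Of the linking proteins, HSPG2 ran from -0.99 in H358 to 0.95 in A549 (mean 0.08 ± 0.60), AGRN from -0.30 to 0.43 (0.10 ± 0.22) and COL18A1 from -1.41 in H661 to 0.57 in H1437 (-0.13 ± 0.67). The dim NID1 had 1.18 in A549, although its level there was only 0.01, and the dim NID2 had -1.51 in H460 and -0.15 in A549, the lines that held it. COL15A1, also dim, had 1.24 in H358 and -1.63 in H460.

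Among integrin beta chains, ITGB8 was higher in 3D in 7 of 8 lines, by 0.43 ± 0.63 (limma, adjusted p = 0.188). A549 (1.44) and H358 (1.35) made up most of the mean, and the other 6 lines lay between -0.24 and 0.40. Its 2 probe sets that are not dim gave 2.76 and 0.13 in A549. ITGB7, a partner of alpha 4, was lower in 7 of 8 lines, by -0.21 ± 0.20 (adjusted p = 0.140, limma), with H1437 the exception (0.21). ITGB4 differed by 0.20 ± 0.46, with 0.79 in H358 and 0.61 in H460 against -0.52 in A427. Its 4 probe sets gave means from -0.15 to 0.75, so they do not share one direction. ITGB1 had differences of -0.25 to 0.35, ITGB3 of -0.09 to 0.04 and ITGB5 of -0.55 (H661) to 1.23 (A549).

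Among alpha chains, ITGA6 had the lowest mean, -0.43 ± 0.93 (adjusted p = 0.359, limma), lower in 6 of 8 lines. The lowest was H1437 at -2.21, which took the line that held least ITGA6 in 2D (-2.86) to -5.07 in 3D, and A549 (0.90) and A427 (0.41) were higher. ITGAV differed by 0.28 ± 0.49, with 1.27 in A549 and 0.75 in H358. ITGA10 had 1.003 in H460, 0.96 in A549 and 0.71 in H23, and at most 0.19 in the others. ITGA1 had 1.60 in H358 and -0.42 to 0.59 elsewhere, while ITGA7 (-0.39 to 0.38), ITGA8 (up to 0.20) and ITGA11 (-0.29 to 0.69) varied little. The dim ITGA4 had -0.44 in H1703, its one high line, and the dim ITGA9 had -0.07 to 0.21. The dim ITGB2 had 0.999 in H358, where its level was highest, and 0.86 in H460.

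**Figure D4:**
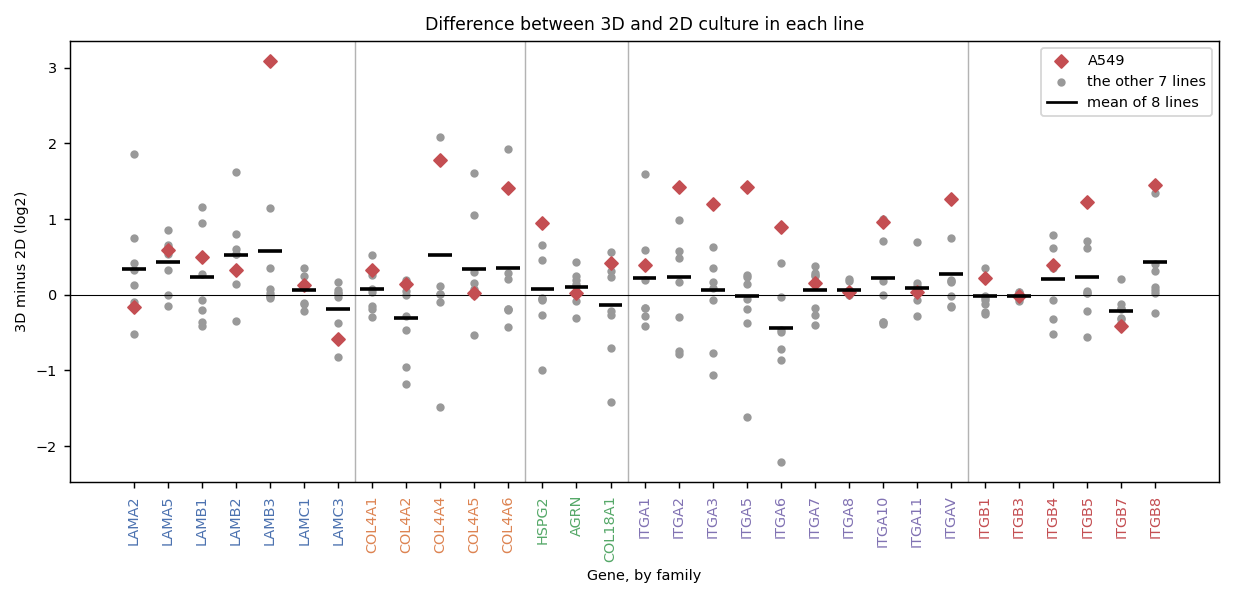
Difference between 3D and 2D (log2) for the 31 tested members, by family, with a red diamond for A549, grey points for the other 7 lines and a black bar for the mean of 8 lines. The bars lie between -0.43 and 0.58, while A549 is the highest line for 9 members, with LAMB3 at 3.09.

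A549, a line from a lung adenocarcinoma, differed from that picture. Of 31 members 9 were at least 2-fold higher in 3D in A549 (29.0%), where 3.98% of all tested genes were, and 0 were 2-fold lower, where 1.03% were. They are LAMB3, COL4A4, COL4A6, ITGA2, ITGA3, ITGA5, ITGAV, ITGB5 and ITGB8. A549 was the highest of the 8 lines in 9 members, where it was so for 12.3% of all genes. Of 16 tested integrins 14 were above 0 in A549, with a median of 0.65 against -0.02 for all genes.

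Other lines had fewer such members. H358 had 5 members 2-fold higher and 0 lower (3.76% and 2.78% of all genes), and H661 had 4 higher and 3 lower (2.58% and 4.88%). H23 had 1 of each (2.56% and 2.08%), and H460 and H1703 had 1 higher (1.96% and 1.25%). H1437 had 2 lower (1.74%), COL4A4 and ITGA6, and A427 had none (0.609% and 0.475%). Only integrins of A549, at 6 of 16, passed 2-fold in more than 2 genes of a line.

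The largest difference was in LAMB3. Its value in A549 was 0.55 in 2D and 3.64 in 3D, an 8.52-fold difference of 3.09. Next were H358, which went from 6.29 to 7.44 (1.15), and H1437, from 5.42 to 5.77 (0.35), and the other 5 lines differed by -0.04 to 0.08. The 3D value of A549 stayed below the 2D values of H358 and H1437, the lines that held most LAMB3 on plastic. A549 exceeded the mean of the other 7 lines by 2.87 (SE 0.52; limma on the 8 differences, adjusted p = 0.0754), and 0.333% of all genes were called in this test. Over 9 alternative settings the adjusted p ran from 0.0164 to 0.113 and was under 0.05 in 3 of them. The test assumes that the single A549 difference varies like the others. The LAMB3 value is that of a single probe set.

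The A549 integrins at 2-fold or more were the collagen receptor chain ITGA2 (1.42), the laminin receptor chain ITGA3 (1.20), and the RGD receptor chains ITGA5 (1.43), ITGAV (1.27), ITGB5 (1.23) and ITGB8 (1.44). ITGA5 was at -0.90 in A549 in 2D and at 0.53 in 3D, while the other lines differed by -1.61 (H661) to 0.26. ITGA3, ITGA5 and ITGAV were each read by a single probe set. ITGAV exceeded the mean of the other 7 by 1.13 (limma, adjusted p = 0.335). ITGA6 exceeded it by 1.52 and ITGA3 by 1.30, and COL4A4 by 1.44. None of the 31 members was called in this test, and 7 had an unadjusted p under 0.05 (LAMB3, ITGA2, ITGA3, ITGA5, ITGAV, ITGB5 and ITGB8), where 6.65% of all genes did.

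Differences of ITGAV were set against those of 3 beta chains, ITGB8, ITGB5 and ITGB3. Those of ITGB8 and ITGB5 went with ITGAV over the 8 lines (Pearson correlation 0.95 and 0.80). A549 and H358 were at the high end. ITGB5 probe sets that are not dim gave 1.47, 1.34 and 0.88 in A549, but 1.74, 0.24 and 0.16 in H358. The 2 ITGB8 probe sets that are not dim disagreed, with 2.76 and 0.13 in A549, 1.82 and 0.88 in H358 and -0.31 and 1.11 in H661. Correlations of single probe sets were not computed, nor was one of ITGB1 (differences of -0.25 to 0.35) with ITGAV. For ITGB3 the correlation was 0.03, but its differences were only -0.09 to 0.04. A dim ITGB3 probe set that the average leaves out differed by -0.80 in A549. ITGB6 has only dim probe sets shared with LINC02478, which were not used, so no correlation was computed. The one that read highest differed by 2.39 in A549, 2.36 in H358 and -1.82 in H1437. The others gave 0.03 to 0.64 in A549, 0.03 to 1.98 in H358 and -1.79 to 0.06 in H1437. The genes of a pair were read on the same arrays with one normalisation, and the correlations are a description with no test. The correlations of the levels with ITGAV were 0.45, -0.67 and -0.27 for ITGB8, ITGB5 and ITGB3. The fibronectin gene FN1 differed by 2.41 in A549 and by -1.08 to 0.88 in the other lines.

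Other measures also moved in A549. The mean over 6 epithelial markers differed by 1.67 there, the highest of the 8 lines (-0.91 to 0.75 in the others). In A549 KRT19 was at 3.27, CDH1 at 2.40 and EPCAM at 1.66, and KRT7 at -0.84. CDH1 differed more in H661 (3.94) than in A549, and by -2.27 in H23. The mean level of the epithelial list ran from -4.75 to 4.53 over lines in 2D and from -4.99 to 4.96 in 3D. The mean of 4 leukocyte markers with a probe set differed by 0.99, through CD14 (3.52), while PTPRC differed by 0.12. It lay between -0.92 and 0.48 in 2D and between -0.87 and 0.81 in 3D. The 18S probe sets differed by -0.98 in A549, between those of other lines. The part of these in the A549 values was not tested.

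**Figure D5:**
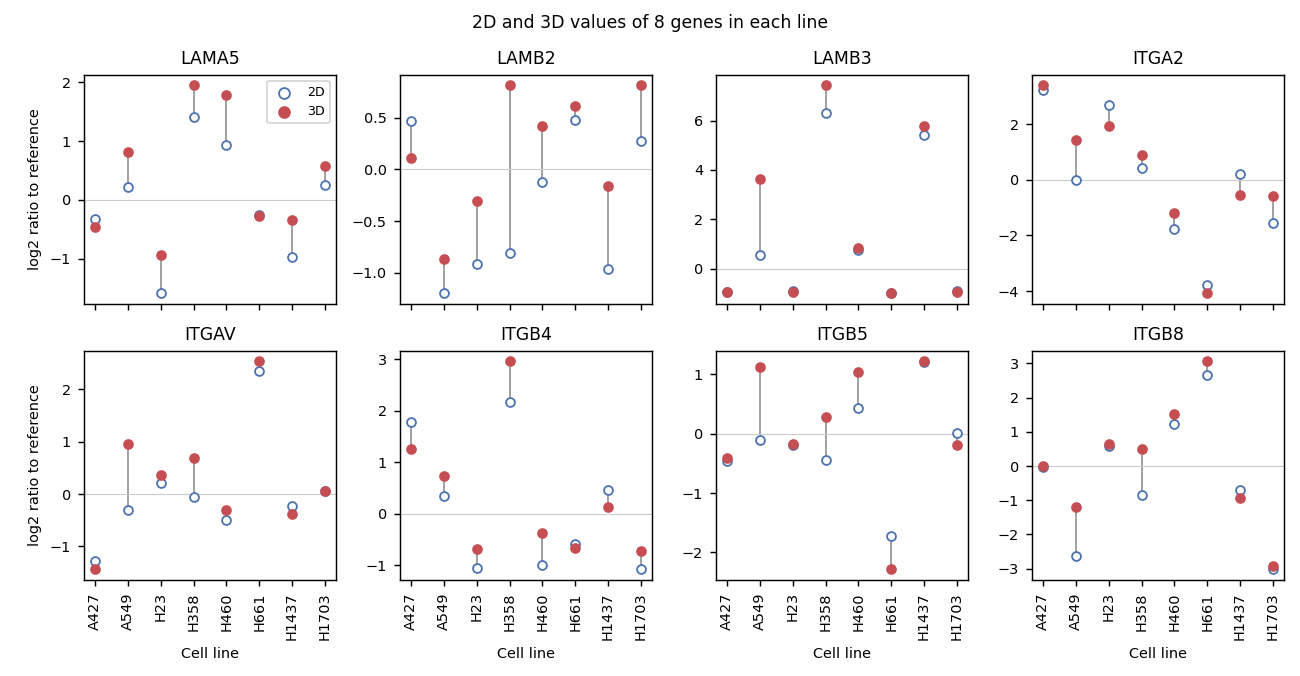
Values in 2D (open circles) and 3D (filled circles) of 8 members in each of the 8 lines, as log2 ratios to the reference, joined within a line. LAMB3 goes from 0.55 to 3.64 in A549 while 5 lines differ by 0.08 or less, and LAMA5 has the 3D value higher in 6 of 8 lines.

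Genes that work with these proteins were counted in the same fit. Of 22 listed genes of basement membrane assembly and turnover 18 were tested and 4 called (3 higher and 1 lower), where 1.97% of all genes were called higher and 4.12% lower. An unadjusted p under 0.05 was found for 7 of the 18, against 25.0% of all genes. P4HA1 and P4HA2, prolyl hydroxylases that stabilise collagen, rose by 1.11 ± 0.72 and 0.66 ± 0.38 in 8 of 8 lines (limma, adjusted p = 0.0248 and 0.0228). PLOD1, a lysyl hydroxylase of collagen, rose by 0.53 ± 0.41 in 7 of 8 lines (adjusted p = 0.0464, limma). SERPINH1, the collagen chaperone HSP47, fell by 0.44 on the log2 scale in 8 of 8 lines (SD 0.18; limma, adjusted p = 0.0195). Enzymes and a chaperone that act on collagen were called in a fit that called none of the 5 tested collagen IV genes. Where 6.09% of all genes are called, a list that short can hold no call, so no contrast is drawn. With the 18S difference as a covariate, 0 of the 14113 genes were called (limma, 1368 with an unadjusted p under 0.05).

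Proteins on the inner side of integrins and other partners gave no call. As 6.09% of all genes were called, lists this short can hold no call without differing from other genes. Of 21 adhesion adaptors 0 were called and 5 had an unadjusted p under 0.05 (limma), near the 25.0% of all genes. In that list 4 lay above 0, against 48.6% of all genes, with a median of -0.11. The nearest were TES, a focal adhesion LIM protein, at -0.41 ± 0.36, and PXN (paxillin) at -0.51 ± 0.53, both lower in 7 of 8 lines (adjusted p = 0.0612 and 0.0853). Of 7 hemidesmosome and tetraspanin partners 0 were called (1 with unadjusted p under 0.05), PLEC (plectin) being at -0.36 ± 0.41. Of 9 other matrix receptors 0 were called (1 with unadjusted p under 0.05), with HMMR, a hyaluronan receptor, at -0.58 ± 0.57. Of 7 genes of the dystroglycan complex and its glycosylation 0 were called (1 with unadjusted p under 0.05), and DAG1 itself has no value here.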

How the data were processed

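RNA from 8 lung cancer cell lines in 2D and 3D culture was measured on 16 arrays, from 200 ng of total RNA per the labels' protocols. The values deposited by the authors are log2 ratios per probe set. From the values, 63.5% of probe sets have a median of 1 over the arrays (within 0.001 in log2) and 36.5% a lower one, called dim here. The sources used here do not name the software or how arrays were normalised. A microarray has no read depth, and the number of arrays limits the precision.

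Genes came from the platform's annotation, with symbols updated through RefSeq: 41097 probe sets had 1 symbol, 1801 several (not used) and 11777 none. A gene's value is the mean of its probe sets that are not dim, or of all of them where all are dim. Of 19775 genes 5662 were dim, and 14113 were tested. Of the members' 112 probe sets, 53 were dim. Another 5 probe sets were shared with other genes and not used. No genome build is named for the array.

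limma 3.58.1 in R 4.3.3 (lmFit, eBayes with a variance trend) gave 3 tests: 3D against 2D with the line as a block, A549 against the other 7 lines on the 8 differences, and an F test over lines with culture as a covariate, followed by each line against the mean of the other 7. The last used all genes, because a gene made by few lines is dim by its median. P-values were adjusted by Benjamini-Hochberg over all genes tested. Pairing rests on the cell line in the labels. Nothing says that arrays of a line came from separate cultures beyond 2D and 3D. P-values for 3D against 2D and for A549 against the others thus measure the spread over lines. Those of the tests among lines measure the spread between cultures around a common shift. Neighbours in an order lie within their spread when they differ by under 1 residual SD of the line fit. The steps were tested on simulated data. Promoter sequences are from RefSeq, and 4 motifs were searched.

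Genes given with values were, in each family, the 3 with the smallest p and the 3 with the widest range over lines, the 6 with the largest A549 difference, and up to 4 of each related list by p. Other members are given by range. FN1, PTPRC and single markers are named from the marker lists, chosen after their values were seen. The members and all lists were chosen with earlier results of these data known. Alternatives changed the gene value, filters, scaling, variance model, block and lines used.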

Additional observations from a re-analysis of the deposited data

Results flagged for a closer look

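In groups of 8 lines, a value was looked at again when its gap to the nearest other line took an unusually large share of the range over lines. This marked 15 of 116 groups examined, and chance alone marks about 1 in 20. Among differences of 3D minus 2D, LAMB3 in A549 stood at 3.09 (next 1.15), ITGA11 in H661 at 0.69 (next 0.15) and ITGB7 in H1437 at 0.21 (next -0.13).

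The other marked values are levels, most of them in H661. LAMA4 was at 3.79 in 2D and 4.39 in 3D there, ITGA7 at 2.70 and 3.09, ITGAV at 2.35 in 2D, ITGA9 at -0.18 in 2D, ITGA11 at 0.76 in 3D and ITGB5 at -2.28 in 3D. H1703 stood apart in ITGA4 (2.07 in 2D and 1.64 in 3D) and in ITGA11 in 2D (0.31). COL4A5 was at -6.64 in H358 in 2D, the lowest ratio of the files.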

How the results depend on the processing

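No member was called between the cultures in any alternative except 1 with arrays centred on their median (LAMA5), and between 0 and 2 when each line was left out in turn (LAMA5 and LAMB2 without A427). For A549 against the other lines, 1 member (LAMB3) was called with no filter on dim genes, with quantile normalization and with no variance trend. The count over all genes, 860 of 14113, was 374 with no filter on dim genes and 0 with the 18S covariate, and 2260 of 27631 probe sets were called with each on its own; the cause was not tested. It ran from 17 (without H1703) to 980 (without A427) when a line was left out, with 76 without H460, 124 without H358, 203 without H23, 293 without H661 and 353 without A549. Pairing rests on the cell line: with no replicate block 1 gene and 0 members were called. Members differing among lines numbered between 34 and 38 when a line was left out.

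Some mean differences changed sign, none of them called, among them LAMA2 (0.34) and COL4A2 (-0.31). With the 18S covariate LAMA2 was at -0.36, LAMB1 -0.0144, LAMC1 -0.0488, COL4A2 0.0430, HSPG2 -0.22, AGRN -0.0104, ITGA5 0.003, ITGA7 -0.0843, ITGA8 -0.00651, ITGA10 -0.18 and ITGB4 -0.0302. With the highest-mean probe set HSPG2 was at -0.0156, COL18A1 0.0258, ITGB1 0.15, ITGB3 0.13 and ITGB4 -0.15. Without probe sets that can match several transcripts AGRN was at -0.17, ITGB3 0.0490 and ITGB4 -0.10. With quantile normalization ITGA3 was at -0.00523, ITGA5 0.0291 and ITGB1 0.0228, and with all probe sets averaged ITGB1 was at 0.00319. Leaving out a line, HSPG2 ran from -0.0441 to 0.23, COL18A1 from -0.23 to 0.0510, ITGA3 from -0.0935 to 0.23, ITGA5 from -0.23 to 0.21 and ITGB1 from -0.0728 to 0.0131. Family means ran from 0.24 to 0.35 for laminins, 0.0578 to 0.29 for collagen IV, -0.0497 to 0.0769 for other basement membrane genes, -0.0217 to 0.14 for integrin alpha chains and 0.0517 to 0.14 for beta chains. With all probe sets averaged, collagen IV was at 0.0917 and beta chains at 0.0355.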

Other observations

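Genes of interstitial matrix, which cells lay outside the basement membrane, also divided the lines. COL1A2 and COL3A1, chains of collagens I and III, had levels of 10.82 and 10.56 in H661, the line high in LAMA4, NID1 and ITGA7. COL3A1 was at 5.40 in A427 and 2.97 in H460, and LUM (lumican) at 4.38 in H460. Of the 6 fibroblast markers in this list 0 were called between the cultures (0 with unadjusted p under 0.05, limma), where 6.09% and 25.0% of all genes were. COL1A1 differed by 1.29 between 3D and 2D in A549.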
